A study of Mus musculus with 8 samples.

Results

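The nuclear genes of the mitochondrial ribosomal proteins were followed across the 4 groups of the study. Members were all genes whose annotated symbol starts with Mrpl or Mrps and goes on with a digit, each read through the probe set that named that gene alone and was brightest on average over the 8 arrays. The rule, which uses names and overall brightness but no difference between groups, found 77 of 19938 genes. Mrpl53 was not among them, because its probe set is shared with Ccdc142 and was left out.

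The mitochondrial ribosome, or mitoribosome, makes the few proteins that the mitochondrial genome encodes, all of them parts of the respiratory chain and ATP synthase. It descends from a bacterial ribosome and has a small and a large subunit, built on mitochondrially encoded rRNAs, but all its proteins are encoded in the nucleus, made in the cytosol and imported. Some have a bacterial homolog and others are found only in mitochondria. Binding sites of nuclear respiratory factor 1 (NRF1), ETS family factors such as GABP, and YY1 are known from promoters of many nuclear mitochondrial genes.

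The cells were 3134, a mouse mammary line that goes back to C127 and the RIII mouse, and all 4 groups carried the same stably integrated A-fos and tetracycline regulator (tTa). A-fos, here under a Tet-Off switch, acts as a dominant negative of AP-1 by holding Fos and Jun family partners off DNA. Cells stood in charcoal-treated serum for 48 h, then received 100 nM dexamethasone, a synthetic glucocorticoid, for 4 h or no hormone (0 h), and tetracycline, where used, was at 1 ug per ml. Each of the 4 combinations of hormone and tetracycline state had 2 arrays. No group was kept for 4 h without hormone, so the hormone and the time cannot be told apart in the responses below. Titles and protocol text disagree on the tetracycline state of every sample. The arms are therefore named after the titles, no-titled and plus-titled, and a sign between them does not say what A-fos did. The labels do not state whether the replicates of a group came from separate cultures or whether the line is 1 clone, and the spread that the tests measure may be a technical one.

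Values are log2 expression from robust multi-array averaging (RMA), and a difference of 1 is a 2-fold change. Differences between the arms are plus-titled minus no-titled, so a negative one is lower in the plus-titled arm. A difference counts as called where limma's p, adjusted over all 19938 genes, is under 0.05, and calls were repeated in 8 fits that each left out 1 array. Gene medians of the arrays lay between 5.591 and 5.688, and replicates correlated at 0.9932 to 0.9956 across genes. Between 4 and 24 genes differed over 2-fold between replicates, with the highest number in the plus-titled pair at 0 h. Of the mesenchymal markers, Vim, Fn1 and Col1a2 had median levels of 12.82, 11.21 and 11.79, above at least 99.5% of genes, and Col1a1 had 6.88, above 66.6%, while the luminal epithelial markers Krt8, Krt18, Epcam and Cdh1 were at 5.91, 5.03, 4.4 and 4.91, so the labelled mammary origin was not visible as an epithelial profile. Leukocyte, endothelial, adipocyte and pituitary corticotroph markers gave 0 calls between the arms by limma, with the smallest adjusted p at 0.184 (Cd68), and their summed levels overlapped. The 5 luminal markers also gave 0 calls (smallest adjusted p = 0.0671, Krt18), but all lay below 0, at -0.13 to -0.28, and their summed log2 level was 25.3 to 25.9 in the no-titled and 24.3 to 25.1 in the plus-titled arrays, with no overlap. Of 4 mesenchymal markers, 3 were lower in the plus-titled arm (Vim at -0.30, Fn1 at -0.34 and Col1a2 at -0.68). The summed log2 level of the 4 was 43.1 to 43.5 in the no-titled and 41.8 to 42.3 in the plus-titled arrays. Of 4 basal markers, Krt14 was lower, at -1.40, and Acta2 higher, at 1.55, and the summed level overlapped (22.1 to 22.8 against 21.5 to 23.4). Their part in the differences below was not tested, and in these bulk samples fewer cells of a type and less RNA per cell cannot be told apart.

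Promoter sequence was read for the members from RefSeq (GRCm38.p6), as the window from 250 bases before to 50 bases after each annotated start. Of the 77 members, 68 were in the table, with 74 windows. The 6 windows below belong to members whose difference between the arms was called in all fits that left out 1 array (Mrps18b, Mrps5, Mrpl17 and Mrpl27; Mrpl15, the fifth such gene, is not in the table used) and to Mrps18a and Mrps18c, the relatives of Mrps18b. They lie at chr17:35916391-35916690, minus strand (Mrps18b), chr17:46110754-46111053, plus strand (Mrps18a), chr5:100798509-100798808, plus strand (Mrps18c), chr2:127587176-127587475, plus strand (Mrps5), chr7:105811038-105811337, minus strand (Mrpl17) and chr11:94653541-94653840, plus strand (Mrpl27). Each runs 5′ to 3′ in the gene's direction, and capitals mark matches, on either strand, to the motifs described after the sequences.
Mrps18b: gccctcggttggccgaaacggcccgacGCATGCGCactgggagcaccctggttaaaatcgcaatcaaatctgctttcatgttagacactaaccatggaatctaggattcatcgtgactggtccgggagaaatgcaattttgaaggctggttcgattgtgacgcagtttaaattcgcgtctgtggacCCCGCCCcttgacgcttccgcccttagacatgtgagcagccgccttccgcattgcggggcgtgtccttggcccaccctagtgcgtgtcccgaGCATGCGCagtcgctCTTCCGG
Mrps18a: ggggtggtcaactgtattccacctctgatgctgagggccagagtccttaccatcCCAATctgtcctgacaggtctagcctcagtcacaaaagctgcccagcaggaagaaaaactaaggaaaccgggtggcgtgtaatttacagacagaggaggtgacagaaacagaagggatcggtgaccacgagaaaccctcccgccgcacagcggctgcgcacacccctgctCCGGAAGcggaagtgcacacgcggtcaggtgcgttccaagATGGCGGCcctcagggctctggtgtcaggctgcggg
Mrps18c: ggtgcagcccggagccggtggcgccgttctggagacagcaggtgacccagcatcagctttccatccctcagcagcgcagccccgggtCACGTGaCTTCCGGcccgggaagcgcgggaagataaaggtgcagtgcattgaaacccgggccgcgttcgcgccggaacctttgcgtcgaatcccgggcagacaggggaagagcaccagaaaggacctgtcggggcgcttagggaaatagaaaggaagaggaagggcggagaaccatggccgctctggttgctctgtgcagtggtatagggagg
Mrps5: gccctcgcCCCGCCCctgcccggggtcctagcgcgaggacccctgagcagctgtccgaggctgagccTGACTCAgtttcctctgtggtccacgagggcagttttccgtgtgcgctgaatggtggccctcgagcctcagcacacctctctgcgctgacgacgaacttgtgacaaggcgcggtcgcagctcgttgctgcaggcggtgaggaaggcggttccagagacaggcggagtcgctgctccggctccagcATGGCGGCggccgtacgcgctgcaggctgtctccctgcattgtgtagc
Mrpl17: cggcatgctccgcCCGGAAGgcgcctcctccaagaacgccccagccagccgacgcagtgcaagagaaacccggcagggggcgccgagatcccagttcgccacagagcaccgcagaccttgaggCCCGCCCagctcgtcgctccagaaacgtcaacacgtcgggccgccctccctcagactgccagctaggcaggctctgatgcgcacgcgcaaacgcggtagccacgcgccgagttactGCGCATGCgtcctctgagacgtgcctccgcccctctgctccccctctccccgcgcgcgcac
Mrpl27: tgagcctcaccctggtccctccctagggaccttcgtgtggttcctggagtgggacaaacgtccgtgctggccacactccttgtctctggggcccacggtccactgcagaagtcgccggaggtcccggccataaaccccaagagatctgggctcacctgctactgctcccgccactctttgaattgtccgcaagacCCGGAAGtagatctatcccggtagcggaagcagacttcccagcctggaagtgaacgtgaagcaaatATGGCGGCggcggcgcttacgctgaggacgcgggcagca

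The letters searched on both strands were GCGCATGC (NRF1), CCGGAAG (ETS family), ATGGCGGC (YY1), CACGTG (E-box), GGGCGGG (GC box), CCAAT (the NF-Y motif), TATAAA (the TBP motif) and TGANTCA (AP-1). No searched motif contains another. The window of Mrps18b holds the NRF1 letters at positions -223 and 28 from the start, the ETS letters at 43 and a GC box at -64. Mrps18a has the ETS letters at -26, those of YY1 at 14 and CCAAT at -196, and Mrps18c has the ETS letters at -156 beside an E-box at -163. Mrpl17 has the NRF1 letters at -11, the ETS letters at -237 and a GC box at -127. Mrps5 and Mrpl27 share the YY1 letters just after the start, at 2 and 11. Mrpl27 also holds the ETS letters, at -55. Mrps5 also holds a GC box, at -242, and the AP-1 letters, at -183.

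Over all 74 member windows, the ETS letters were in 33.8% against 8.86% of all 32851 windows in the table. The YY1 letters were in 14.9% against 2.24% and the NRF1 letters in 10.8% against 2.71%. GC boxes were in 43.2% against 25.6%. CCAAT (39.2% against 37.4%) and the E-box (9.46% against 7.15%) stood at shares near those of all windows. TATAAA (6.76% against 13.6%) and the AP-1 letters (4.05% against 7.81%) were in smaller shares of member windows than of all windows. Among the 8 windows of members called lower in the plus-titled arm, 5 held the ETS letters, 5 a GC box, 3 the NRF1 letters, 2 the AP-1 letters and 1 the YY1 letters. A match describes the letters in the window and shows no binding.

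Many members share a start region with a gene on the other strand. A divergent start within 1000 bases was found for 26 of 68 members (38.2%), against 12.3% of 27025 genes in the table. Mrpl46 and Mrps11, 1 protein of each subunit, start 42 bases apart on opposite strands, and their arm differences were 0.11 and -0.08, neither called. Mrpl43 starts 116 bases from Twnk, the mitochondrial DNA helicase gene, and Mrps12 starts 147 bases from Sars2, the mitochondrial seryl-tRNA synthetase gene. Of the partners measured, 5 were called between the arms, and none of their members was. These differences are averaged over 0 h and 4 h, where 7.74% of all genes were called lower and 11% higher. Whether members and partners changed together was not tested. Ska3 (-0.45), Ncapd2 (-0.35) and Twnk (-0.27) lay on the same side of 0 as Mrpl57 (-0.19), Mrpl51 (-0.05) and Mrpl43 (-0.14). Klc4 and Tmem63b, 141 and 131 bases from Mrpl2 and Mrpl14, were higher in the plus-titled arm by 0.73 and 0.51, while those members were at -0.21 and -0.15. Ppp1r10, whose start lies 756 bases from that of Mrps18b, differed between the arms by 0.06 ± 0.07 (log2, SE, adjusted p = 0.64).

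The first comparison set the plus-titled against the no-titled arm, averaged over 0 h and 4 h. In the plus-titled arm 11 of 77 members were lower and 1 was higher. The lower genes came from both subunits and were led by Mrps18b (0.585 of its no-titled level), Mrpl15 (0.708), Mrpl3 (0.743) and Mrps5 (0.763), and the higher one was Mrpl27 (1.35-fold). No member differed 2-fold. The lower calls are 14.3% of the members, and 7.74% of all genes were called lower; the higher call is 1.3%, and 11% of all genes were called higher. The median over the 77 members was -0.104 against -0.022 over all genes, and 61 of them (79.2%) lay below 0 against 55.5% of all genes.

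**Figure D1:**
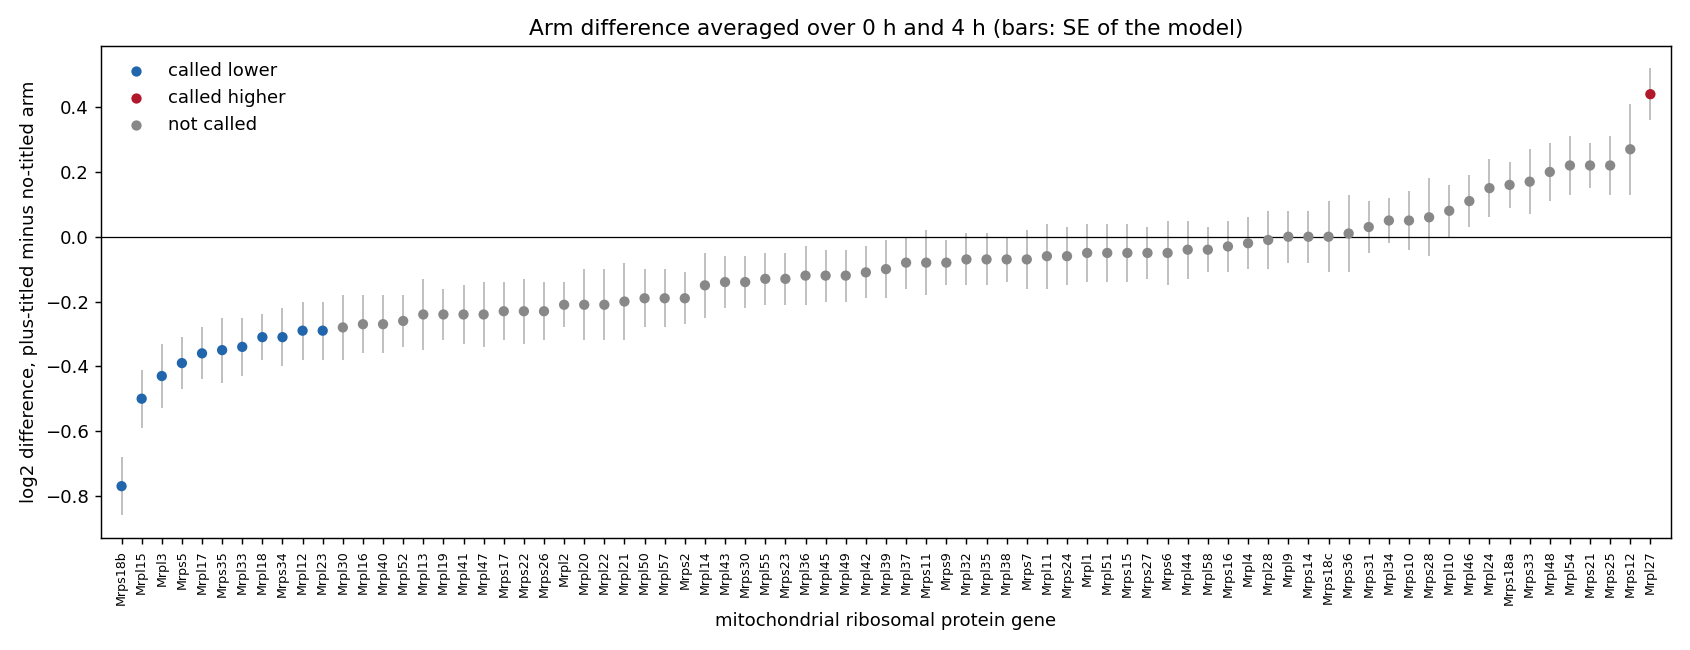
Log2 difference of the plus-titled from the no-titled arm, averaged over 0 h and 4 h, on the vertical axis for each of the 77 genes, ordered along the horizontal axis, with bars for the model's SE. Most points lie a little below 0, and Mrps18b at -0.77 and Mrpl27 at 0.44 stand at the ends.

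Mrps18b, a small-subunit protein and 1 of 3 mammalian relatives of bacterial S18, read 9.16 and 9.11 in the untreated no-titled arrays, 9.25 and 9.33 in the treated no-titled arrays, 8.69 and 8.40 in the untreated plus-titled arrays, and 8.41 and 8.25 in the treated plus-titled arrays. Every plus-titled array was below every no-titled one. The averaged difference was -0.77 ± 0.09 (SE, adjusted p = 0.000202), and the call was kept in all 8 fits without 1 array. Its relatives did not share this. Mrps18a, which sits in the large subunit in spite of its name, read 8.03, 8.05, 7.97 and 8.00 in the no-titled arrays and 8.24, 8.16, 8.08 and 8.21 in the plus-titled ones. Its arms did not overlap, in the opposite direction, but the difference of 0.16 ± 0.07 did not pass (adjusted p = 0.187). Mrps18c, the relative nearest to the bacterial protein in position, read between 8.91 and 9.08 in the no-titled and between 8.78 and 9.24 in the plus-titled arrays, which overlapped, with an averaged difference of 0.00 ± 0.11. The difference between these 3 genes' arm effects was itself not tested.

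**Figure D2:**
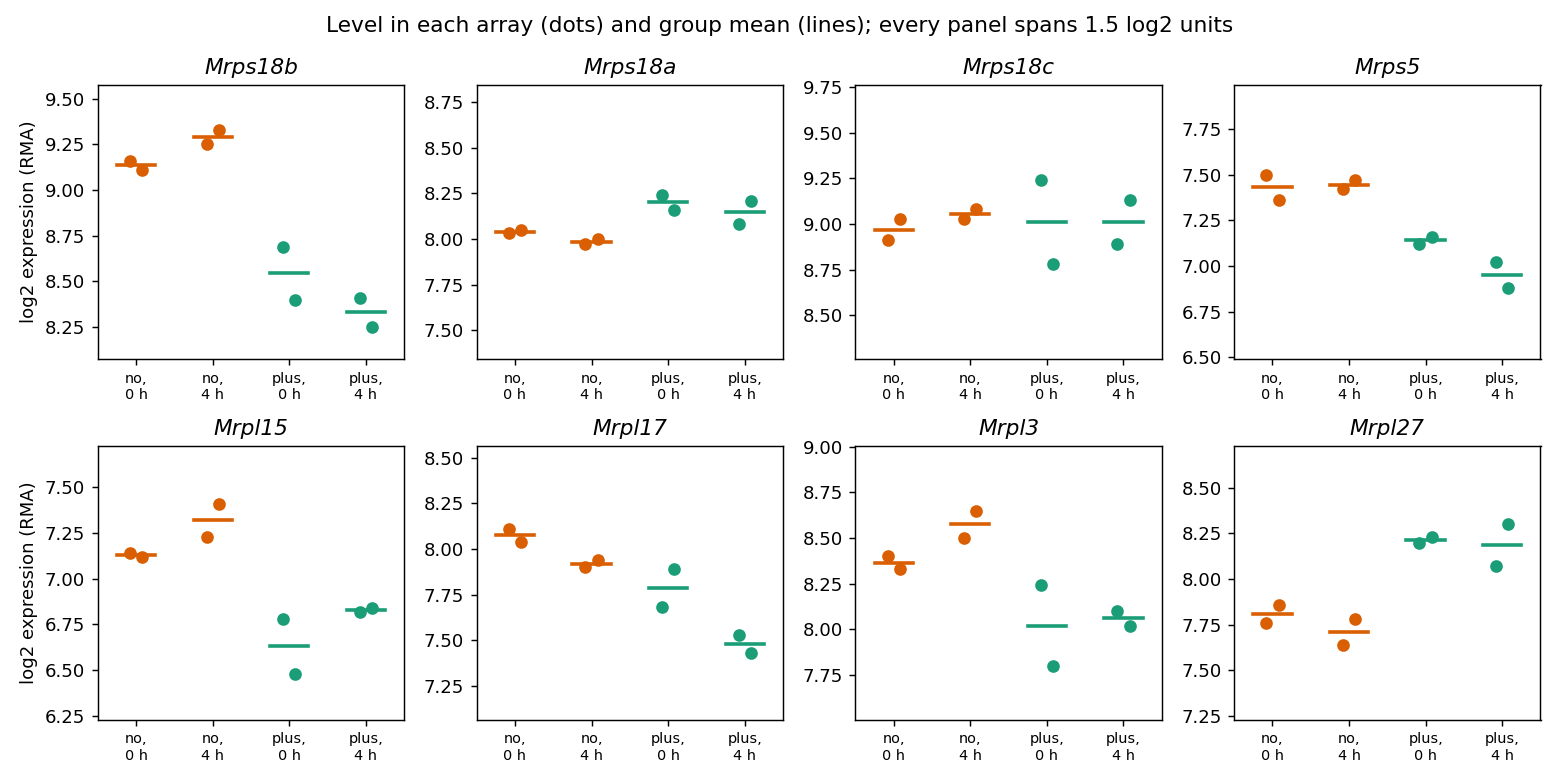
Log2 expression (RMA) in each array as dots, with group means as lines, for Mrps18b, its relatives Mrps18a and Mrps18c, and 5 members called between the arms; the groups run along each horizontal axis and every panel spans 1.5 log2 units. The plus-titled dots lie below all no-titled dots for Mrps18b, Mrps5, Mrpl15, Mrpl17 and Mrpl3, above them for Mrpl27, and among them for Mrps18c.

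Among large-subunit proteins, Mrpl15, the homolog of bacterial L15, read 7.14 and 7.12 at 0 h and 7.23 and 7.41 at 4 h in the no-titled arm, against 6.78 and 6.48, then 6.82 and 6.84, in the plus-titled arm. It was lower in the plus-titled arm, at -0.50 ± 0.09 (adjusted p = 0.0029), about as far apart at 0 h (-0.51) as at 4 h (-0.49). Mrpl17, the homolog of L17, which lines the end of the tunnel through which the new protein leaves, read 8.11, 8.04, 7.90 and 7.94 against 7.68, 7.89, 7.53 and 7.43. The highest plus-titled value, 7.89, came within 0.01 of the lowest no-titled one. Its averaged difference was -0.36 ± 0.08 (adjusted p = 0.00891). Both calls were kept in all 8 fits.

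Mrpl3, the homolog of L3 near the peptidyl transferase centre, read 8.40, 8.33, 8.50 and 8.65 in the no-titled arrays and 8.24, 7.80, 8.10 and 8.02 in the plus-titled ones. The arms did not overlap, with untreated plus-titled replicate 1 the nearest to the other arm, and the difference was -0.43 ± 0.10 (adjusted p = 0.013). Without replicate 2 of the treated no-titled group it was -0.39 and did not pass (adjusted p = 0.0507). Mrpl18, whose bacterial relative L18 binds 5S rRNA, read between 10.19 and 10.27 in the no-titled and between 9.89 and 9.97 in the plus-titled arrays. It was lower, at -0.31 ± 0.07 (adjusted p = 0.013), a call that was lost without replicate 2 of the untreated no-titled group (-0.29, adjusted p = 0.0575) or of the treated no-titled group (-0.29, 0.0538).

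Mrps5, the small-subunit homolog of S5 near the decoding site, read 7.50, 7.36, 7.42 and 7.47 against 7.12, 7.16, 7.02 and 6.88. It was lower in every plus-titled array, at -0.39 ± 0.08 (adjusted p = 0.00512, kept in all 8 fits), and its second probe set gave -0.36, though at single times the sets differed (-0.29 and -0.45 at 0 h, -0.49 and -0.27 at 4 h). Mrpl27, whose bacterial homolog L27 reaches into the peptidyl transferase centre, went the other way. It read 7.76, 7.86, 7.64 and 7.78 in the no-titled arrays and 8.20, 8.23, 8.07 and 8.30 in the plus-titled ones, all above. The difference was 0.44 ± 0.08 (adjusted p = 0.00409, kept in all 8 fits), and its second probe set gave 0.46. RefSeq lists a pseudogene of Mrpl27, so what these probes read is less certain than for a gene with no such copy.

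The other calls were nearer the threshold. Mrpl33 (-0.34 ± 0.09, adjusted p = 0.0251), Mrpl23, at the mouth of the exit tunnel (-0.29 ± 0.09, 0.0426), and Mrpl12, the stalk protein (-0.29 ± 0.09, 0.0431), are large-subunit proteins. Mrps34 (-0.31 ± 0.09, 0.0303) and Mrps35 (-0.35 ± 0.10, 0.0374) are small-subunit proteins found only in mitochondria. Mrps35 overlapped between the arms, at 7.41 to 7.73 against 7.02 to 7.44, and the other 4 did not. Of the 8 fits without 1 array, these calls were lost in 5 for Mrpl23 and Mrpl33 and in 6 for Mrpl12, Mrps34 and Mrps35. Mrpl33 was lost without replicate 1 (adjusted p = 0.0517) or 2 (0.092) of the untreated no-titled group, replicate 2 of the treated no-titled (0.101) or untreated plus-titled group (0.0627), and replicate 1 of the plus-titled group at 4 h (0.0864). Mrpl23 was lost without any of the same arrays but that of the untreated plus-titled group, where replicate 1 in place of 2 ended the call (adjusted p between 0.0844 and 0.152). Mrpl12 was kept only without replicate 2 of the untreated no-titled or the treated plus-titled group (elsewhere adjusted p up to 0.169), Mrps34 only without replicate 1 of the untreated no-titled or untreated plus-titled group (elsewhere up to 0.123), and Mrps35 only without replicate 1 of the untreated plus-titled or replicate 2 of the treated plus-titled group (elsewhere up to 0.131).

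Without regard to the test, 17 of 77 members (22.1%) read lower in all 4 plus-titled arrays than in all 4 no-titled ones, where 9.05% of all genes did. Read higher in all 4 were 5 members (6.49%), where 11.7% of all genes did, and 55 overlapped. Besides the called genes, the 17 included Mrpl2, Mrpl16, Mrpl40, Mrpl43, Mrpl50, Mrpl52 and Mrps2. The 5 were Mrpl27, Mrpl48, Mrpl54, Mrps18a and Mrps21. Mrps21, the S21 homolog, read 9.44 to 9.52 in the no-titled and 9.68 to 9.72 in the plus-titled arrays, a difference of 0.22 ± 0.07 that missed the threshold (adjusted p = 0.058).

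The arrays of a group did not all carry the difference equally. With each member centred on its own mean over the 8 arrays, the median deviation was 0.001 and 0.06 in the untreated no-titled arrays and 0.03 and 0.12 in the treated ones. In the plus-titled arm it was -0.003 and -0.062 untreated and -0.077 and -0.051 treated. Replicate 1 of the untreated plus-titled group and replicate 1 of the untreated no-titled group therefore stood at nearly the same place, and the former also had the lowest gene median of the 8. Between the replicates of a group, the median over the members of replicate 1 minus replicate 2 was taken. It was -0.039 and -0.088 in the no-titled groups at 0 h and 4 h, and 0.069 and -0.040 in the plus-titled groups. Each was smaller in size than the median arm difference averaged over both times, -0.104. At 0 h alone, however, the gap of 0.069 was larger in size than the members' median arm difference, -0.063. For a single member the absolute gap between replicates had a median of 0.095 to 0.131.

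The same arms were then set against each other before hormone. At 0 h, 2 members were lower in the plus-titled arm, Mrps18b at -0.59 ± 0.12 (adjusted p = 0.015) and Mrpl15 at -0.51 ± 0.13 (0.0322), and 0 were higher. An unadjusted limma p under 0.05 was reached by 12 of 77 members (15.6%), where 22.8% of all genes reached it. The lower calls are 2.6% of the members beside 3.18% of all genes, and 6.2% of all genes were higher, so no excess of calls was seen at 0 h. The median was -0.063, and -0.019 over all genes, with 53 members (68.8%) below 0 beside 53.6% of all genes. Both calls were lost without replicate 1 or 2 of the untreated no-titled group or replicate 2 of the untreated plus-titled group. Mrps18b then gave -0.57, -0.62 and -0.45 (adjusted p = 0.105, 0.0763 and 0.0727) and Mrpl15 -0.50, -0.51 and -0.35 (0.155, 0.14 and 0.126). Without replicate 1 of the untreated plus-titled group 5 members were lower, with Mrpl13 (-0.60), Mrpl3 (-0.56) and Mrps35 (-0.60) added, and the median was -0.110; without replicate 2 the median was -0.019. With arrays centred on their medians the calls were 1 higher and 1 lower, and over all genes 1360 higher and 477 lower in place of 1236 and 634.

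At 4 h of dexamethasone, 6 members were lower and 1 was higher in the plus-titled arm. Mrps18b was lower, at -0.96 ± 0.12 (adjusted p = 0.0013), to 0.515 of its no-titled level. Mrps5 was at -0.49 (0.0182), with -0.27 on its second probe set, Mrpl17 at -0.44 (0.0335), Mrpl15 at -0.49 (0.0345), Mrpl3 at -0.51 (0.0476) and Mrpl19, the L19 homolog, at -0.41 (0.0483), and Mrpl27 was higher, at 0.47 (0.0295). The lower calls are 7.79% of the members beside 4.32% of all genes, and the higher call is 1.3% beside 5.29%. The median was -0.131 against -0.014 over all genes, and 60 of 77 (77.9%) lay below 0 beside 52.9% of all genes.

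Mrpl19 was called at 4 h alone. It read 7.20 and 7.08 at 0 h and 7.46 and 7.39 at 4 h in the no-titled arm, and 7.16 and 7.0, then 7.09 and 6.94, in the plus-titled arm. The treated no-titled arrays stood above the other 6, and the difference of its 2 hormone responses (-0.35 ± 0.16) did not pass (adjusted p = 0.967). Of the 4 h calls, only that of Mrps18b was kept in all 8 fits. Mrps5 and Mrpl27 lost theirs without replicate 1 or 2 of the treated no-titled group or replicate 2 of the plus-titled group at 4 h (adjusted p up to 0.137 and 0.213). Mrpl3, Mrpl15, Mrpl17 and Mrpl19 were kept only without 1 of the untreated plus-titled arrays (elsewhere up to 0.231, 0.212, 0.189 and 0.265). With arrays centred on their medians 3 members were lower and 1 was higher.

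The next question was whether 4 h of dexamethasone altered these genes within an arm. No member was called in either arm by limma. In the no-titled arm the changes ran from -0.20 to 0.35 with a median of 0.026, and 2 members had an unadjusted p under 0.05 (2.6%, where 9.1% of all genes did). In the plus-titled arm they ran from -0.33 to 0.26 with a median of -0.027, and again 2 had an unadjusted p under 0.05 (2.6%, where 9.98% of all genes did). Over all genes, 1.03% were called higher and 0.401% lower in the no-titled arm, and 0.823% and 0.281% in the plus-titled arm. At those shares 0 calls among 77 genes sets the members little apart. The 95% intervals of single members reached from -0.52 to 0.64 and from -0.62 to 0.70, so a 2-fold change lay outside all of them.

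**Figure D3:**
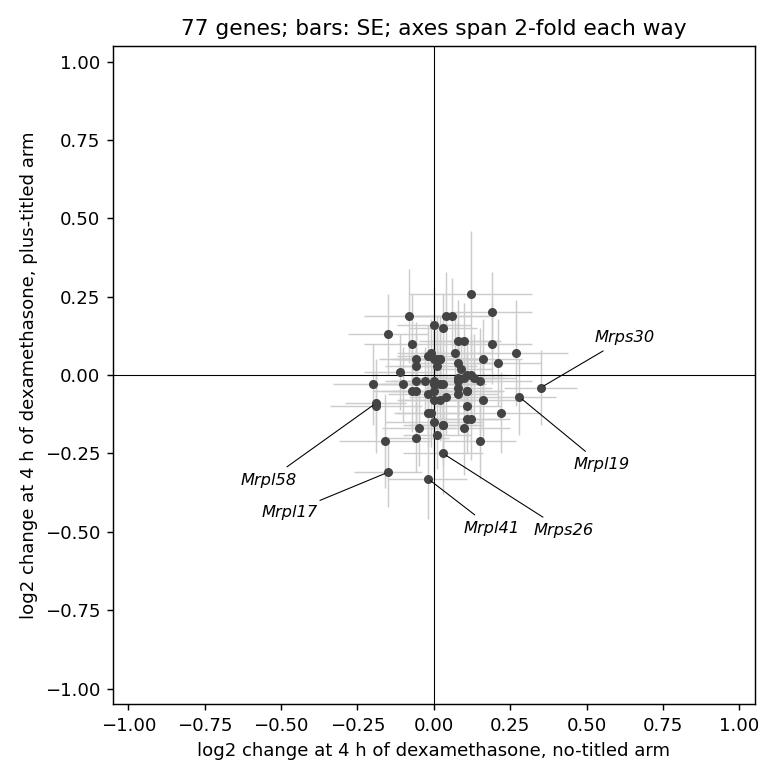
Log2 change after 4 h of dexamethasone in the no-titled arm (horizontal) against the plus-titled arm (vertical) for the 77 genes, with SE bars; both axes reach 2-fold either way. All points lie within 0.35 of 0 on both axes, and the 6 named genes have the smallest p-values in 1 of the arms.

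Mrps30, a large-subunit protein found only in mitochondria, had the smallest p in the no-titled arm. It read 7.28 and 7.05 untreated and 7.48 and 7.54 treated, a difference of 0.35 ± 0.12 (adjusted p = 0.309), and in the plus-titled arm 7.24 and 7.20, then 7.09 and 7.26. The treated no-titled pair lay above the other 6 arrays. Mrpl19 (0.28, adjusted p = 0.462) and Mrpl58 (-0.19, 0.664), a peptide release factor built into the large subunit, came next. In the plus-titled arm the smallest p-values were those of Mrpl17 (-0.31, 0.36), Mrpl41 (-0.33, 0.416) and Mrps26 (-0.25, 0.574).

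The study's design asks, last, whether the hormone response differed between the arms. For the members the difference of the responses (plus-titled minus no-titled) ran from -0.39 to 0.27, 0 were called in either direction, and 1 had an unadjusted p under 0.05 (Mrps30, -0.39 ± 0.17, adjusted p = 0.961). The next smallest were Mrpl19 (-0.35, 0.967) and Mrps18b (-0.37, 0.976). Over all genes 0.0% were called higher and 0.00502% lower, so this contrast resolved little for any gene, and single members' intervals reached from -0.76 to 0.76. Mrps18b stood at -0.59 between the arms at 0 h and at -0.96 at 4 h, without a detectable difference between the times.

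Split by place in the ribosome, 7 of 50 large-subunit members were lower and 1 higher in the averaged comparison (median -0.126), against 4 and 0 of 26 small-subunit members (median -0.059), beside the 7.74% of all genes called lower and 11% called higher. Leaving out 1 array gave 2 to 8 and 2 to 6 lower calls, the fewest in the large subunit without replicate 2 of the treated no-titled group. The large-subunit median then lay between -0.154 and -0.106. That of the small subunit moved from -0.115 without replicate 1 of the untreated no-titled group to -0.007 without its replicate 2, so the order of the 2 medians was kept in all 8 fits but the distance between them was not. Mrps36 was counted in neither, since its product is now known as a part of the 2-oxoglutarate dehydrogenase complex, and it differed by 0.01 ± 0.12. Of 46 members with a bacterial homolog 9 were lower and 1 higher (median -0.076), and of 27 found only in mitochondria 2 were lower, Mrps34 and Mrps35 (median -0.117). At 4 h the bacterial class had 6 lower and 1 higher calls and the mitochondrial class 0, with medians of -0.122 and -0.150. At that time 4.32% of all genes were called lower and 5.29% higher. With such shares, 0 calls among 27 genes sets the mitochondrial class little apart. These counts rest on single arrays. Leaving out 1 gave 4 to 10 lower calls for the bacterial class averaged (4 without replicate 2 of the treated no-titled group) and 1 to 7 at 4 h, and 0 to 4 for the mitochondrial class averaged (4 without replicate 1 of the untreated plus-titled group). The shares with an unadjusted limma p under 0.05 in the averaged comparison were 39.1% and 40.7%, beside 29.6% of all genes. The difference between the classes was not tested.

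Mean signals ran from 5.92 (Mrps36), 5.95 (Mrps10) and 6.35 (Mrps11) to 9.09 (Mrps15), 9.58 (Mrps21) and 10.08 (Mrpl18). These are brightness values of different probes and do not order the RNAs. Of the 8 members with a second probe set, Mrpl23, Mrpl27, Mrps5, Mrps33 and Mrps36 gave averaged arm differences within 0.04 of each other. Mrpl41 gave -0.24 on the set used and 0.00 on the other, with -0.39 and 0.03 at 4 h. Mrpl51 gave -0.05 and -0.18, with -0.05 and 0.10 at 0 h and -0.05 and -0.45 at 4 h, and hormone responses of 0.07 and -0.33 in the plus-titled arm. Mrpl47 gave -0.24 and -0.16, and plus-titled responses of -0.21 and 0.32. None of these 3 was called, and in these contrasts their values depend on the probe set. RefSeq also lists pseudogenes of Mrpl23, Mrpl48 and Mrps36. Where a gene has such a copy, closeness of its probe sets is no independent check.

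The mitoribosome has further proteins under other symbols, and 4 of 5 were measured. Ptcd3, a small-subunit protein of the pentatricopeptide family, was lower in the plus-titled arm, at -0.53 ± 0.11 (adjusted p = 0.00625) and Chchd1, at -0.48 ± 0.10 (0.00811), both in all 8 fits without 1 array. Dap3, a GTP-binding small-subunit protein, was at 0.00 ± 0.07 and Gadd45gip1 at -0.21 ± 0.09, and neither passed.

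The 30 assembly and rRNA modification factors had a median of -0.080, with 6 lower (20%) and 3 higher (10%), beside 7.74% and 11% of all genes. C1qbp, an acidic matrix protein needed for mitochondrial translation, was lower, at -1.01 ± 0.10 (adjusted p = 7.4e-05), a larger difference than that of any member. Noa1, a GTPase of small-subunit assembly, was lower, at -0.61 and Nsun4, an rRNA methyltransferase that also joins the subunits with Mterf4, was higher by 0.61. All 3 were kept in all 8 fits. Of 12 translation factors 2 (16.7%) were lower, Tufm (the elongation factor Tu, -0.29) and Guf1 (-0.29). The recycling factor gene Mrrf was higher (0.31), as 1 of the 12 (8.33%). None of these 3 calls was kept in all 8 fits, being lost in 5, 6 and 6 of them with adjusted p up to 0.0855, 0.155 and 0.163.

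Of 18 genes of mitochondrial DNA and RNA maintenance 4 were lower (22.2%) and 0 higher (median -0.143), beside 7.74% and 11% of all genes. Lrpprc, which stabilises mitochondrial mRNAs, was at -0.46, the RNA helicase gene Supv3l1 at -0.41 and the single-strand binding protein gene Ssbp1 at -0.36, kept in all 8 fits. Of 19 genes of mitochondrial tRNA charging 4 were lower (21.1%) and 0 higher (median -0.139). Among the 4 were Yars2 (-0.49), Tars2 (-0.37) and Nars2 (-0.30), and only Tars2 was kept in all 8. Nars2, the asparaginyl-tRNA synthetase gene, was the gene of this machinery called higher after 4 h of dexamethasone. The calls were 0.77 ± 0.12 in the no-titled arm (adjusted p = 0.00648) and 0.94 ± 0.12 in the plus-titled arm (0.00228). The former was lost without either untreated no-titled array (0.0557 and 0.079) or replicate 1 of the treated no-titled group (0.0808).

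Of 9 nuclear regulators of mitochondrial genes 3 (33.3%) were lower and 1 (11.1%) higher between the arms, beside 7.74% and 11% of all genes. Myc, a transcription factor that drives growth and ribosome production, was lower in the plus-titled arm, at -1.34 ± 0.08 (adjusted p = 7.46e-06) and the coactivator gene Pprc1, at -0.43 ± 0.09 (0.00761), both in all 8 fits. Nrf1, whose product binds the letters searched for above, was lower, at -0.34 and Ppargc1a was higher by 0.30. These did not pass in 5 and 6 of the fits without 1 array, where adjusted p reached 0.0776 and 0.125. Whether any of these genes bears on the members was not tested.

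The cytosolic ribosome gave a comparison, with lists chosen when earlier results of these data were known. The shares below describe those lists and are no test of them. Of 39 factors that build it 33 (84.6%) were lower in the plus-titled arm and 0 higher, beside 7.74% and 11% of all genes. Gnl3 (-1.21), Nop56 (-1.17) and Dkc1 (-1.14) led, the median was -0.589, and 30 of the 33 calls were kept in all 8 fits. Of 61 cytosolic ribosomal protein genes 18 were lower and 0 higher, with a median of -0.235 and all 61 below 0 (59 under cyclic loess scaling), led by Rpl12 (-0.64), Rps19 (-0.48) and Rps13 (-0.46). Leaving out 1 array gave 9 to 20, the fewest without replicate 2 of the untreated or of the treated no-titled group, and Rps19 and Rps13 were each lost in 6 fits. Many of these genes have processed pseudogenes, so their probe sets are uncertain. For the members the median was -0.104 and 16 of 77 were above or at 0.

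The respiratory chain and ATP synthase are where the products of the mitoribosome are built in. Of 81 nuclear-encoded subunit genes 4 were lower and 4 higher, 4.94% each beside the 7.74% and 11% of all genes, among them Ndufa3 (0.56), Atp5g1 (-0.48) and Cox6a2 (-0.40). Their median was 0.011, and 34 of 81 (42%) lay below 0 beside 55.5% of all genes. In all 4 plus-titled arrays 10 (12.3%) read higher and 6 (7.41%) lower than in the no-titled ones, beside 11.7% and 9.05% of all genes. The median of the 81 lay between -0.032 and 0.070 when 1 array was left out, and 1 of the 8 calls was kept in all 8 fits. Without 1 array 0 to 6 were higher and 1 to 5 lower, with 0 higher without replicate 1 and 6 higher without replicate 2 of the treated no-titled group. No mitochondrially encoded gene was named by the annotation used, so RNAs translated by the mitoribosome were not analysed here.

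**Figure D4:**
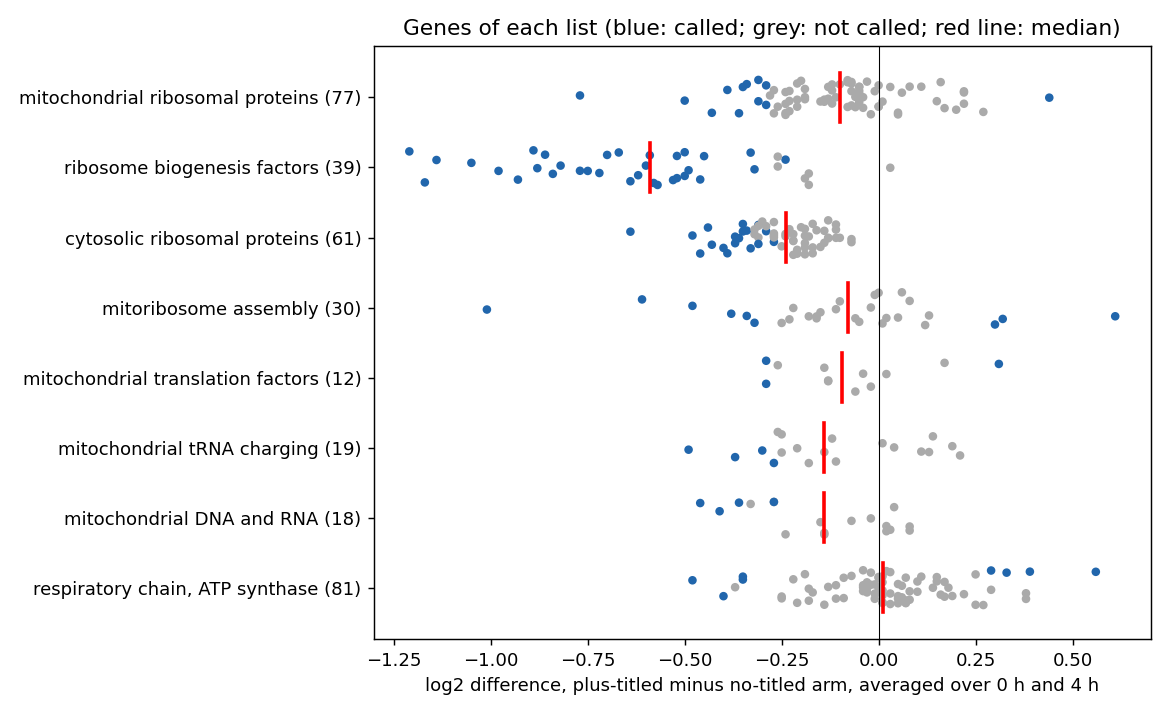
Averaged arm difference (plus-titled minus no-titled, log2, horizontal) of each gene in the mitochondrial ribosomal protein set and 7 related lists, with the number of genes in brackets, blue for called and grey for not called, and a red line at the median. Ribosome biogenesis factors lie farthest to the left (median -0.589), cytosolic ribosomal proteins next (-0.235), the mitochondrial ribosomal proteins nearer 0 (-0.104) and the respiratory chain around 0 (0.011). The lists were chosen with earlier results of these data known.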

How the data were processed

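RNA of 8 samples, 2 in each of 4 groups, was measured on Affymetrix oligonucleotide arrays. The deposited table holds the authors' log2 values for 28888 probe sets; per the submitters' processing notes they come from Affymetrix Expression Console and RMA, with no version stated. Because RMA equalises the arrays' distributions, it hides any change common to most genes. Probe sets were named from the array's annotation, updated by gene number: 21789 had 1 symbol, 1621 several and 5478 none in the table used. The brightest probe set stood for a gene (999 of 19938 genes had several), with no filter on signal.

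The test was limma 3.58.1 (lmFit, eBayes; R 4.3.3), 2-sided, on 4 group means fitted to the 8 arrays together, adjusted over all genes by Benjamini-Hochberg. There were 4 residual and 6.64 prior degrees of freedom, and the prior SD was 0.127; the number of arrays limits the precision. The fit was also run on simulated arrays with known fold changes and independent noise drawn from limma's own prior. Such a run checks the code and says nothing on how replicates of these samples vary. Alternatives were a trended and robust variance, a fit of the compared arrays alone, a replicate block, a filter on the dimmest 25% of genes, median centring, cyclic loess, the mean of probe sets, and leaving out each array.

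Members were counted in full; named were those called, or else the 3 with the smallest p, the 3 brightest and dimmest, those whose probe sets disagreed in direction, and up to 3 called genes of each other list in the averaged comparison, plus Nars2. The members and lists were chosen with earlier results of these data known.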

Additional observations from a re-analysis of the deposited data

How the results depend on the processing

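The 2 arrays per group limit every result here, and no direction of a called member reversed under any alternative. For called members the alternatives kept the call in 223 cases and lost it in 80; medians over the members moved by less than the spread between replicates in 80 cases and by more in 8. At 0 h the members called higher and lower were 1 and 4 with a trended and robust variance, 0 and 1 with only the arrays compared, 1 and 2 with the replicate block, 1 and 4 without the dimmest genes, and 1 and 1 with arrays centred on their medians. At 4 h they were 1 and 11, 0 and 5, 1 and 6, 1 and 7, and 1 and 3 under the same alternatives. Averaged over both times they were 2 and 17 with the trended and robust variance, 1 and 12 with the replicate block, 2 and 16 without the dimmest genes, 1 and 8 centred, and 1 and 20 with cyclic loess. In the fit used for the results above, 6.2% of all genes were called higher and 3.18% lower at 0 h. Those shares were 5.29% and 4.32% at 4 h, and 11% and 7.74% averaged. Calls over all genes can change with the setting too, so a larger count of members under an alternative is not by itself an excess. Leaving out 1 array gave 0 to 5 lower and 0 to 0 higher members at 0 h, 1 to 7 lower and 0 to 1 higher at 4 h, and 4 to 14 lower and 1 to 2 higher when averaged. Both hormone responses and their difference had 0 calls under every alternative. The averaged contrast and the difference of responses use all arrays, so a fit of only the arrays compared was not run for them. Deviations of same-numbered replicates correlated at -0.019 to 0.133 between groups. These values cannot settle whether same-numbered samples shared a culture or day, which the labels do not state. With the replicate block the limma calls of Mrpl3 at 4 h (adjusted p = 0.0521) and of Mrpl12 (0.0514) and Mrps35 (0.054) averaged were lost.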
